A study of Mus musculus with 4 samples.

Results

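Heterotrimeric G proteins and RGS proteins were examined by expression microarray in a pair of stable lines of EPH-4 cells, a mouse mammary epithelial cell line. The members were the non-control probes whose gene name in the array's annotation matched symbols of G alpha, G beta, G gamma or RGS genes. These were 100 of 41174 probes, which stood for 54 of 28146 gene names. The match also took in 2 genes of other WD repeat proteins (3 probes) and 2 genes of RGS anchoring proteins (4 probes). EV-50 cells carried the empty vector H1-2, and shGR-19 cells carried a vector expressing an shRNA against the glucocorticoid receptor (GR), a hormone-activated transcription factor. Both lines were clones selected with puromycin and kept in 2 µg/ml of it, and both were cultured in serum-free medium without added glucocorticoid. There were 2 arrays per line, labelled replicate 1 and replicate 2, and for each array 300 ng of RNA was labelled with Cy3. The labels did not give the duplicates as separate cultures, so that p-values measured the spread between these arrays, which may be technical. Each line was a single clone, and differences between clones cannot be told apart from the effect of the shRNA. In bulk RNA, fewer cells of a type and less RNA per cell cannot be told apart either.

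Heterotrimeric G proteins relay signals from membrane-spanning receptors at the cell surface. A receptor that has bound its ligand makes the G alpha subunit exchange GDP for GTP, after which G alpha and the G beta-gamma dimer each act on effectors. G alpha s activates adenylyl cyclase, G alpha i inhibits it, and G alpha q activates phospholipase C beta. The RGS (regulator of G protein signalling) proteins speed up the hydrolysis of GTP by G alpha and so shorten the signal. In mammary epithelium, as in other epithelia, receptors for lysophospholipids, prostaglandins, catecholamines and chemokines signal through these subunits.

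The G gamma genes held the largest difference, and several of their probes share stretches of sequence. The dimmer of the Gng2 probes spanned an intron, chr14:20695134-20710543 in the mm9 coordinates of the array annotation, minus strand. One probe each of Gng5 (chr3:146162974-146166272, plus strand) and Gng7 (chr10:80414438-80415581, minus strand) spanned an intron as well. They are printed 5′ to 3′ as they stand in the scanner files, and capitals in the Gng5 and Gng7 probes mark bases identical to the Gng2 probe in the best ungapped alignment.
Gng2: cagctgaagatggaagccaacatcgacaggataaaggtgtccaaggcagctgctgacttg
Gng5: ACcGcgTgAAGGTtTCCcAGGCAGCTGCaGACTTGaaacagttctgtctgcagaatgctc
Gng7: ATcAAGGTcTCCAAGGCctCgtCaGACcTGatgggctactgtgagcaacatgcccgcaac
The alignment with Gng2 held 28 identical of 35 bases for Gng5 and 22 identical of 30 bases for Gng7. Whether any of these probes binds RNA of another G gamma gene was not tested.

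The other called members, defined below, were read by a single probe each, whose first 30 of 60 bases are given here to identify the RNA that was measured.
Gng11, chr6:3958364-3958423, plus strand: agttatggaatgaaggcatggctcccccac
Rgs10, chr7:135517256-135517315, minus strand: gaccttccctctggatatgtgtattttatt
Rgs16, chr1:155592244-155592303, plus strand: gagagaactcttttaagtataatattgtgt
These coordinates are also those of mm9.

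The authors deposited the processed intensity of each spot for each array (the scanner files) and log2 values of these samples in a single table (the value table). A scanner reading here is log2 of the intensity over the array's 75th percentile, and a table reading is log2 over the probe's median. Probes were kept where 1 or both lines had them well above background on each of their arrays, which held for 24443. A probe passed when its adjusted p in limma was below 0.01, and was called when the fold was also above 2.

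The arrays labelled replicate 1 of the 2 lines stood close to each other in the scanner files. Over the 51 member probes that all 4 arrays read well above background, the SD of the log2 difference was 0.194 between EV-50 and shGR-19 replicate 1. It was 0.605 between the EV-50 arrays, 0.775 between the shGR-19 arrays and 0.669 between EV-50 and shGR-19 replicate 2. The order was turned in the value table, with 0.196 between the EV-50 columns and 0.127 between the shGR-19 columns, against 0.794 and 0.758 between the lines. Line differences in the value table correlated with that of the scanner arrays labelled replicate 2 at Pearson's r = 0.957 and with that of the arrays labelled replicate 1 at r = 0.140, over these 51 probes, which share their arrays. Over the 21173 probes of the array that were well above background, with readings, on all 4 arrays, each scanner pair was set against the value table columns of the same number instead. There r was 0.883 for replicate 2 and 0.0548 for replicate 1. The replicate 1 columns of the value table therefore did not follow the scanner arrays of the same label, and the cause was not tested. Counts and called genes are given from both sources, with the 2 scanner pairs apart. Other single genes are given from the value table, and 8 of the 40 member genes with a kept probe had the opposite sign in the scanner files: Gna13, Gnal, Gnat1, Gnat2, Gng8, Gng12, Rgs12 and Rgs14.

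The targeted gene, Nr3c1, which encodes GR, differed in the same way between the sources. Its scanner readings were 1.81 and 1.92 in EV-50, and 1.46 and -0.034 in shGR-19. The lowest reading was that of shGR-19 replicate 2, while shGR-19 replicate 1 lay 0.35 below EV-50 replicate 1. In the value table Nr3c1 was lower in shGR-19 by 1.94 on the log2 scale (log2 difference -1.94, SE 0.048, limma adjusted p = 0.0022). The library labelled shGR-19 replicate 1 thus showed little of the depletion in its scanner file. Of 9 epithelial marker genes, 8 were kept and were well above background on all 4 arrays. By the value table, 1 of these 8 was called lower, against 2.39% of all kept probes, and 0 were called higher. Whether the lines kept their epithelial identity is not read from this small count. All 4 arrays lay on 1 slide.

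Of the 54 member genes, 40 had at least 1 kept probe and 14 had none. The kept probes numbered 63, of which 51 were well above background on all 4 arrays. A further 9 were below that limit on EV-50 replicate 1 and on no other array, the array with the fewest spots well above background (23290, against 26745 to 27358 on the others), and 3 were below it on both EV-50 arrays. These 12 probes were kept through shGR-19 alone, and 0 through EV-50 alone. All G alpha genes except Gnao1, all G beta genes and 8 of 10 G gamma genes were detected in this sense. Gnao1, the main G alpha of neurons, reached at most 2 arrays. Among the RGS genes, 4 of 9 of the R4 family, 1 of 4 of the R7 family, all 3 of the R12 family and 2 of 3 of the RZ family were kept. The genes well above background on no array were Gng4, Gng13, Rgs1, Rgs4, Rgs5, Rgs13, Rgs18, Rgs6, Rgs7, Rgs9 and Rgs22. Many of these are known from neurons, retina, lymphocytes, platelets or vascular smooth muscle. Rgs17 and Rgs7bp, which encodes an anchor for R7 RGS proteins, reached 1 array each. The rod and cone G gamma genes Gngt1 and Gngt2, which lie outside the member names, were also well above background on no array.

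**Figure D1:**
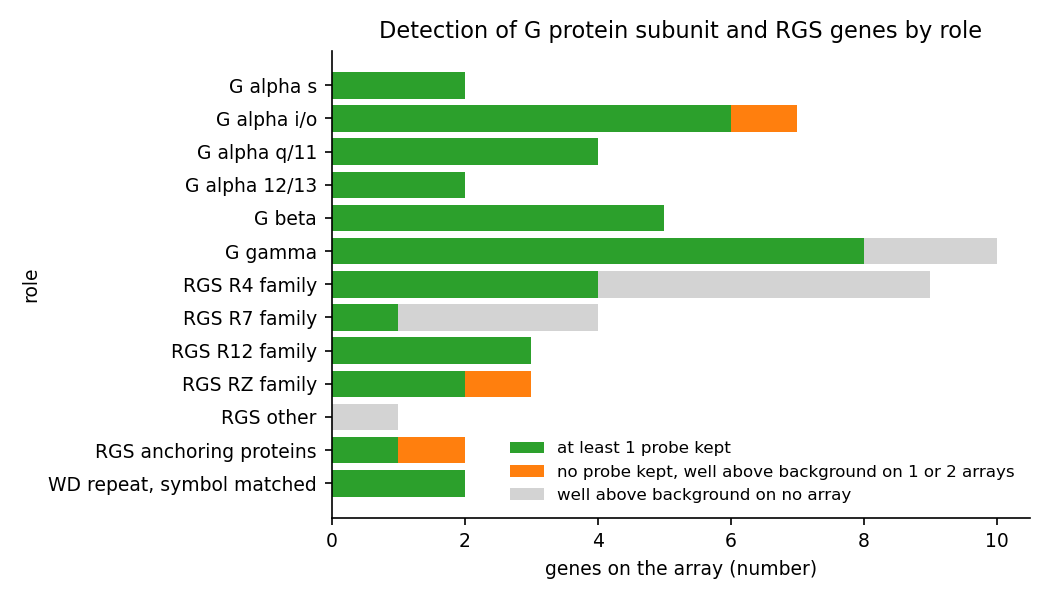
Number of genes on the array in each role, with green bars for genes with at least 1 kept probe, orange for genes well above background on 1 or 2 arrays without a kept probe, and grey for genes well above background on no array. Of 54 genes, 40 are green and 11 are grey, and the R4 family holds 5 of the grey genes.

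By the value table, 4 of the 63 kept member probes (6.35%) were called higher in shGR-19, against 1.87% of all kept probes, and 1 (1.59%) was called lower, against 2.39%. Without the limit on the fold, 8 member probes (12.7%) passed higher, against 5.53% of all kept probes, and 2 (3.17%) passed lower, against 6.04%. Of the 8, 3 read Gnaz, 2 read Gng2 and 1 each read Gng11, Rgs10 and Gnaq. Both Gng2 probes were also among those called higher. These probe shares thus count some genes more than once, and no share over all genes is given. The median log2 difference was 0.14 over the member probes and 0.0087 over all kept probes, and 66.7% of member probes were above 0, against 51.0%. By genes, with the brightest kept probe standing for each, 27 of 40 genes were above 0 and 13 below. Gng11, Gng2, Rgs10 and Gnaz passed higher and Rgs16 passed lower. All 10 member probes that passed were well above background on all 4 arrays. With any 1 array left out, no member was called, and the adjusted p of Gng11, Gng2, Rgs10 and Rgs16 lay between 0.0264 and 0.0388. With all probes of the array kept, 1 member probe, that of Gng11, was called.

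In the scanner files 0 of 63 member probes and 0 of 24441 probes in all (0%) were called. At an unadjusted p below 0.05, 3 member probes were higher in shGR-19, against 0.622% of all kept probes, and 0 were lower, against 0.233%. These 3 probes read Gng8, Rgs20 and Rgs9bp, none of which was well above background on either EV-50 array. They were kept through shGR-19, the line in which they were higher, so that nothing is read from this count. Between the arrays labelled replicate 1, 4 member probes were more than 2-fold higher in shGR-19, against 2.46% of all, and 1 was more than 2-fold lower, against 1.11%. Between the arrays labelled replicate 2, 4 were more than 2-fold higher, against 2.37%, and 2 were lower, against 3.16%. The 4 of replicate 1 were probes of Gng8, Rgs9bp, Gnal and Rgs20, all kept through shGR-19 alone and not well above background on EV-50 replicate 1, and nothing is read from their count either. The 4 of replicate 2 were those of Gng11, Rgs10 and both Gng2 probes. Rgs8 was the lower one of replicate 1, and Rgs16 and the same Gnal probe were those of replicate 2. No member probe was thus more than 2-fold higher in both pairs.

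**Figure D2:**
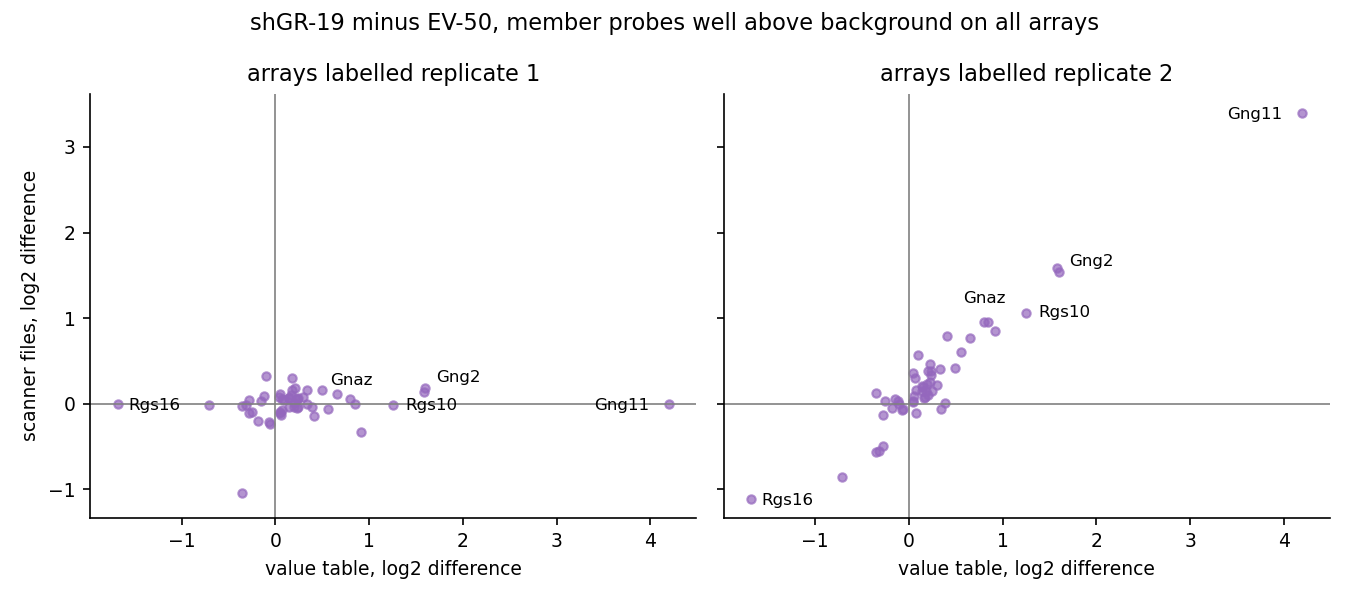
Log2 difference, shGR-19 minus EV-50, of the 51 member probes that all 4 arrays read well above background, in the value table (horizontal) and between scanner arrays of the same replicate number (vertical, replicate 1 left and replicate 2 right); genes that passed in the value table are named. The points follow the value table in the right panel (r = 0.957), while on the left Gng11 and Rgs16 lie at 0.

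Among the G alpha genes, the brightest probe passed for Gnaz and for none of the others. Gnas, the ubiquitous stimulator of adenylyl cyclase, had scanner readings of 5.26 and 5.42 in EV-50, and 5.13 and 5.72 in shGR-19. These overlapped, and the value table gave a difference of 0.07 (SE 0.065, limma adjusted p = 0.489). A second Gnas probe in the same part of the gene gave 0.05, while a dim probe upstream gave 0.39 (adjusted p = 0.0457) and another gave -0.17, none of which passed. The dim stimulatory gene Gnal had a value of -0.35 with a large error (SE 0.35), against 0.05 (SE 0.29) in the scanner files.

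The inhibitory genes Gnai1, Gnai2 and Gnai3 gave 0.15, 0.07 and 0.20 in the value table and did not pass. The transducin genes Gnat1 and Gnat2, known from rods and cones, gave -0.10 and -0.12, against 0.42 (SE 0.22) and 0.06 (SE 0.52) in the scanner files.

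Gnaz, which encodes an inhibitory G alpha that hydrolyses GTP slowly and resists pertussis toxin, rose in the value table. Its scanner readings were -1.22 and -0.69 in EV-50, and -1.22 and 0.26 in shGR-19. The replicate 1 arrays were level and the replicate 2 arrays stood 0.95 apart. The columns of the value table read -0.39 and -0.46 in EV-50, and 0.39 and 0.45 in shGR-19. The lines did not overlap there, and the difference was 0.85 (1.80-fold, SE 0.058, limma adjusted p = 0.0054). All 3 kept Gnaz probes passed, at 0.80, 0.85 and 0.92.

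Among the G alpha q genes, Gnaq had scanner readings of 1.97 and 2.54 in EV-50, and 2.13 and 2.96 in shGR-19. Each shGR-19 array was above the EV-50 array of the same number, but the lines overlapped. For this probe the value table gave 0.50 (SE 0.074, adjusted p = 0.0193), and 0.65 (SE 0.048, adjusted p = 0.0059) for a dimmer probe, which passed. Gna11, whose product acts on the same effectors as that of Gnaq, gave 0.14. Gna14 and Gna15, the latter known from blood cells and epithelia, gave -0.18 and -0.28. Gna12 and Gna13, which form a class of their own, gave 0.10 and 0.05, and none of these passed.

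G beta subunits carry the WD repeats that form the propeller of the dimer. The 4 Gnb1 probes agreed closely in the value table, between 0.23 and 0.24, and none passed. The brightest had scanner readings of 4.46 and 4.13 in EV-50, and 4.42 and 4.47 in shGR-19, which overlapped. Gnb2 gave 0.33 (SE 0.072, adjusted p = 0.0401) and Gnb5, the partner of R7 RGS proteins, gave 0.41 (SE 0.13, adjusted p = 0.0922). Gnb4 gave 0.18 and Gnb3 gave -0.07 with an SE of 0.58, and both were dim.

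G gamma subunits anchor the dimer in the membrane through a lipid at their C terminus, and they held the largest difference of all member genes. Gng11, which carries a farnesyl rather than a geranylgeranyl group, had scanner readings of -0.28 and -1.92 in EV-50, and -0.28 and 1.48 in shGR-19. The highest and the lowest of the 4 readings were those of replicate 2, which stood 3.40 apart, while those of replicate 1 differed by -0.0037. Its columns in the value table read -2.08 and -2.13 in EV-50, and 2.08 and 2.11 in shGR-19. The lines stood far apart there, and Gng11 rose by 4.20 (18.3-fold, SE 0.051, limma adjusted p = 0.0012). The scanner difference over both pairs was 1.70 with an SE of 0.84 and was not called. With all probes of the array kept, its adjusted p was 0.0089.

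Gng2, a widely expressed subunit, was second among the G gamma genes. Its brighter probe (chr14:20694822-20694881) had scanner readings of -0.48 and -0.73 in EV-50, and -0.30 and 0.81 in shGR-19. Both shGR-19 readings were above both EV-50 readings, with a difference of 0.18 for replicate 1 and 1.54 for replicate 2. Gng2 rose in the value table by 1.60 (3.03-fold, SE 0.059, adjusted p = 0.0029). The intron-spanning probe printed above gave -2.33 and -2.49 in EV-50, and -2.20 and -0.90 in shGR-19, again without overlap. Its difference in the value table was 1.58 (2.99-fold, SE 0.057, adjusted p = 0.0028). The Gng2 probes did not overlap, but their nearer ends lay close together, and they gave nearly the same fold.

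The other G gamma genes moved less. Gng10 gave 0.56 (SE 0.063, adjusted p = 0.0114) and Gng5, which was bright on all arrays, gave -0.32 and -0.28 for its probes (adjusted p = 0.0347 and 0.043). Neither gene passed. Gng12 was read differently by its probes, whose starts lay 2775 bases apart. The brighter gave -0.15 (SE 0.05, adjusted p = 0.101), and the other fell by 0.71 (SE 0.058, adjusted p = 0.007). In the scanner files this second probe read 1.86 and 1.91 in EV-50, and 1.84 and 1.05 in shGR-19, with the shift in replicate 2 alone. Gng3 and Gng7 were dim and gave 0.07 and 0.18. Gng8, known from olfactory and vomeronasal neurons, was well above background on neither EV-50 array. By the scanner readings at the main setting, the lower bound of its rise in shGR-19 was 1.60-fold. With another background correction (normexp) the log2 difference was only 0.46, which lies below that bound. The Gng8 probe was kept through shGR-19 alone, so no rise is read from these values. The value table gave -0.48 (SE 0.62), so that its direction was not settled.

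**Figure D3:**
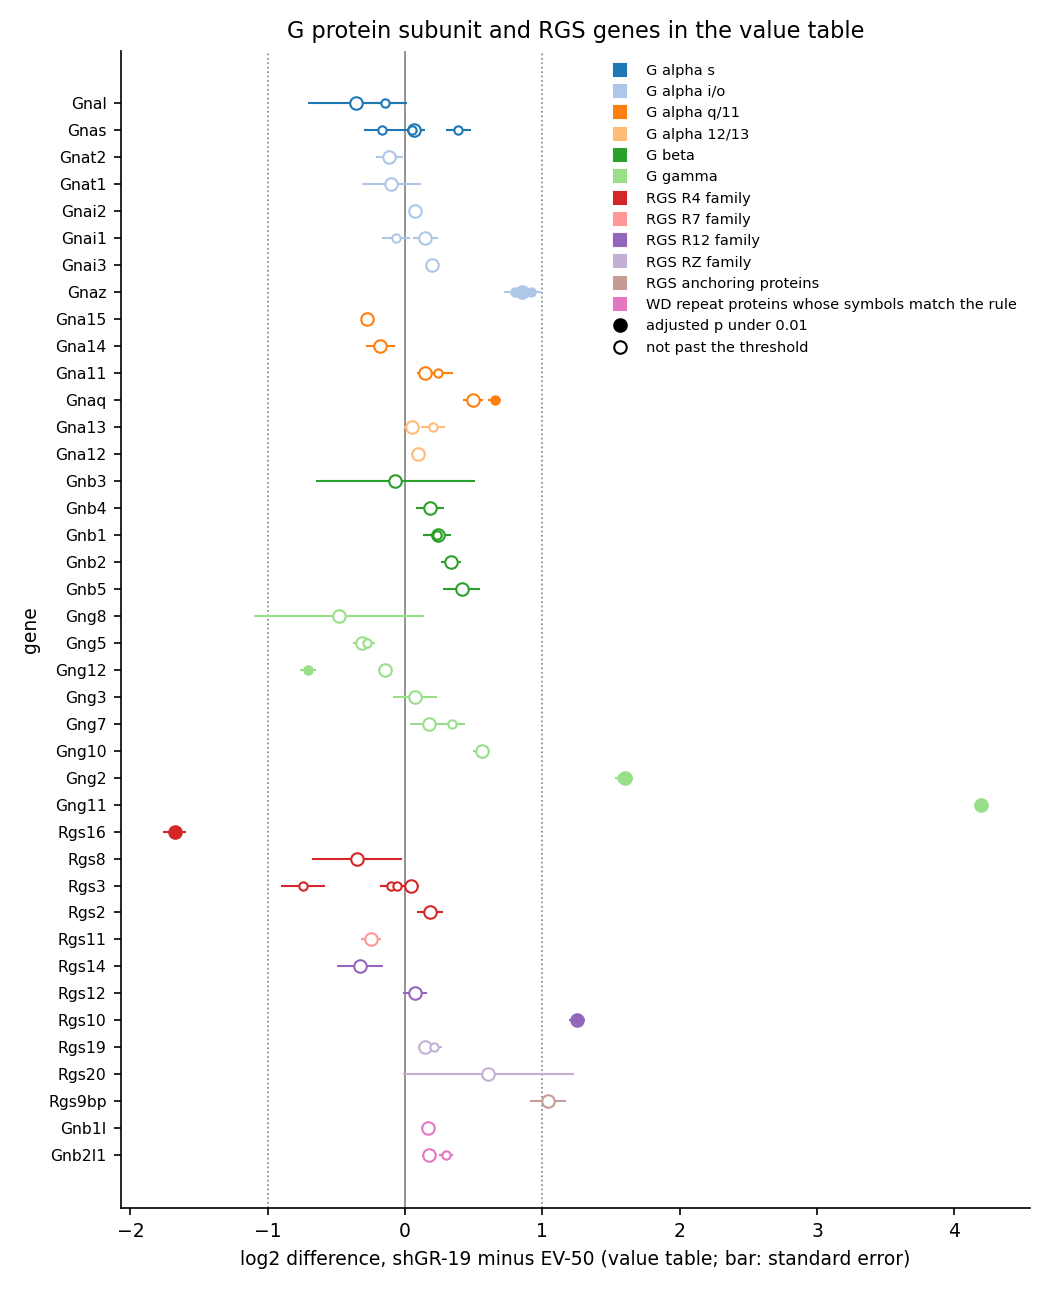
Log2 difference, shGR-19 minus EV-50, in the value table for every kept probe of the 40 member genes, grouped by role in colour; large points are the brightest probe of a gene, bars are standard errors from 2 columns per line, filled points passed and dotted lines mark a 2-fold difference. Gng11 (4.20), Gng2 (1.60) and Rgs10 (1.25) lie past the line on the right and Rgs16 (-1.68) on the left; Rgs9bp (1.04) is past it without passing and was not well above background in EV-50.

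RGS genes moved in both directions. Rgs10, a small R12 family member that acts on G alpha i, o and z, had scanner readings of -0.14 and -0.07 in EV-50, and -0.16 and 0.99 in shGR-19. Only shGR-19 replicate 2 stood above the others. Its columns read -0.60 and -0.67 in EV-50, and 0.64 and 0.60 in shGR-19, and Rgs10 rose by 1.25 (2.38-fold, SE 0.056, adjusted p = 0.0035). Rgs12 and Rgs14, the larger members of its family, gave 0.07 and -0.33 and did not pass, and had scanner differences of -0.027 (SE 0.67) and 0.016 (SE 0.69).

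Rgs16, an R4 family member that acts on G alpha i and q and is known as an early response gene, was the 1 member called lower. Its scanner readings were -2.41 and -3.21 in EV-50, and -2.41 and -4.32 in shGR-19. The lowest reading was that of shGR-19 replicate 2, 1.11 below EV-50 replicate 2, while the replicate 1 arrays differed by -0.0015. The Rgs16 columns read 0.78 and 0.83 in EV-50, and -0.97 and -0.78 in shGR-19, and Rgs16 fell by 1.68 (3.20-fold lower, SE 0.087, adjusted p = 0.0039). Of the other R4 genes, Rgs2, which acts on G alpha q, gave 0.18, and Rgs8 gave -0.35 (SE 0.33). The Rgs2 scanner readings showed how far replicates of a line could stand apart, at 1.17 and -0.58 in EV-50, and 1.47 and -0.43 in shGR-19. Rgs3 had 5 kept probes, of which the brightest gave 0.04 and the dimmest -0.74 (SE 0.16, adjusted p = 0.0403).

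Rgs11 of the R7 family gave -0.25 and Rgs19 of the RZ family, which acts on G alpha z and i, gave 0.14 and 0.21 for its probes. Rgs20 of the RZ family gave 0.61 with an SE of 0.62. For Rgs9bp, which anchors RGS9 to membranes in the retina, the lower bound of the rise in shGR-19 was 1.20-fold by the scanner readings at the main setting. With another background correction (normexp) its log2 difference was only 0.13, which lies below that bound. Its probe was kept through shGR-19 alone, so no rise of Rgs9bp is read from these values. Its value in the table, 1.04 (adjusted p = 0.0136), gives no fold, as EV-50 was not well above background on either array. Rgs20 and Rgs9bp were well above background in shGR-19 alone. Gnb2l1 and Gnb1l matched by symbol only, as they encode WD repeat proteins outside the G beta family. The first is the ribosome-associated scaffold RACK1. They gave 0.18 and 0.17 and did not pass.

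**Figure D4:**
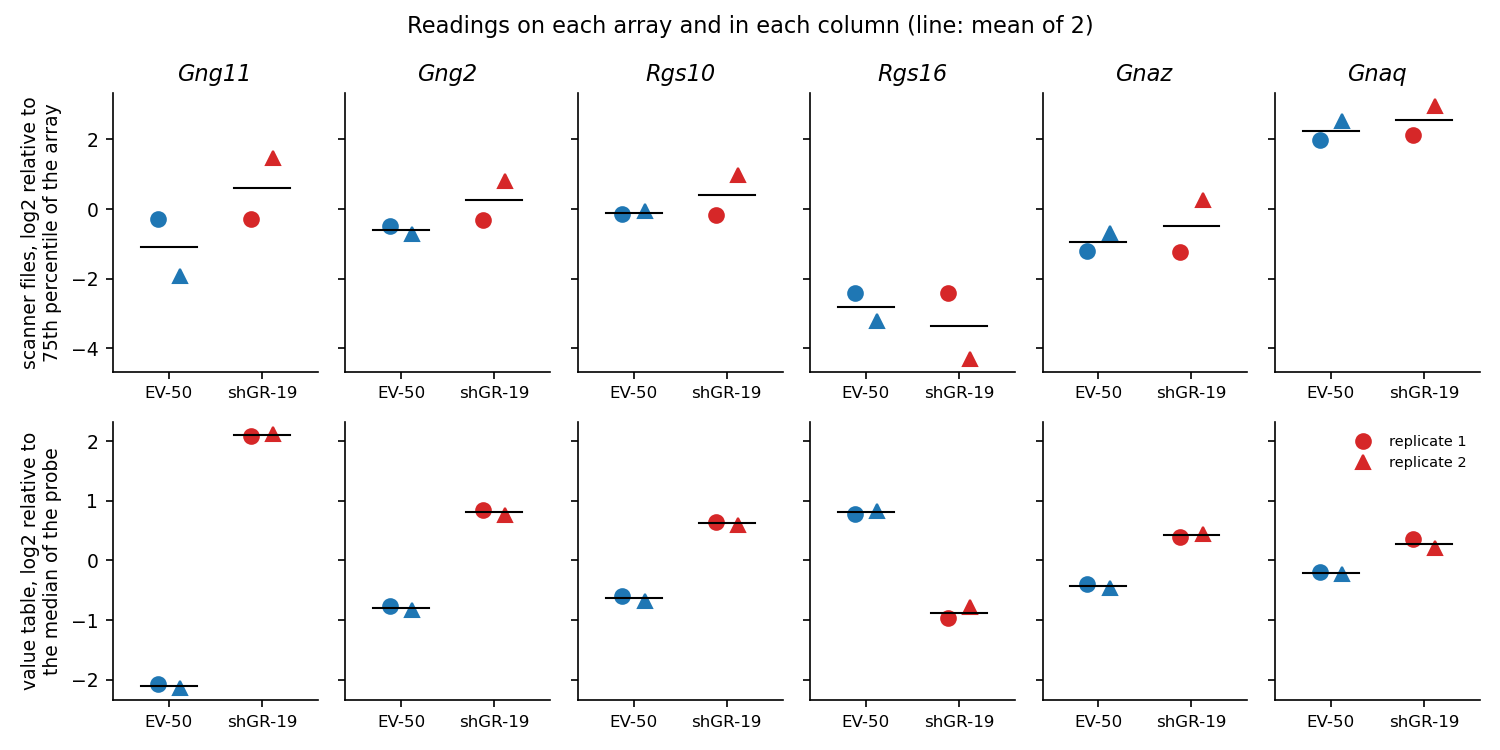
Readings of the brightest probe of 6 member genes on each scanner array (top, log2 over the array's 75th percentile) and in each column of the value table (bottom, log2 over the probe's median), with circles for replicate 1, triangles for replicate 2, blue for EV-50, red for shGR-19 and a line at the mean of 2. The circles of a gene lie level in the top row for Gng11 (-0.28 in both lines) and Rgs16 (-2.41 in both lines), and the lines separate in the bottom row for all 6 genes.

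The called genes lay on different chromosomes, and their neighbours by probe position were described without a test. None of the 3 nearest kept genes on either side of Rgs10 or of Gng2 passed. Near Rgs16, the closest gene was the member Rgs8, at -52.3 kb with a difference of -0.35, and Glul, the glutamine synthetase gene, passed higher at 0.86. Near Gng11, Bet1 at 69.5 kb gave -0.09, while Col1a2, a type I collagen gene at 532 kb, was called higher with 3.27. A transcript named 9530028C05, at -675 kb on the other side, was also called higher with 1.28. A transcript named AK087204, at 603 kb, passed lower with -0.70.

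Col1a2 was among the fibroblast and mesenchymal marker genes. Of 7 such genes, 3 were kept, and all 3 (Vim, Col1a2 and Pdgfrb) were called higher in the value table, against 1.87% of all kept probes. Their summed scanner level was 0.93 and 2.68 in EV-50, and 0.93 and 5.52 in shGR-19, on the log2 scale over the 75th percentile. The replicate 1 arrays were level and shGR-19 replicate 2 was the highest, as for Gng11. Of the marker genes not kept, Col1a1, Col3a1 and Thy1 reached at least 1 array, and the fibroblast gene Dcn was well above background on no array. Of 6 immune marker genes, 3 (Cd3e, Cd79a and Cd68) were kept and well above background on all 4 arrays, and 0 passed. The others, Ptprc, Itgam and Emr1, were well above background on no array. The part of the mesenchymal genes in the Gng11 and Gng2 results was not tested.

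Promoter sequence was matched for 3 of the 4 called genes in the RefSeq table of GRCm38.p6 and is shown because GR is a DNA-binding factor. The 250 bases before the start of each gene are printed 5′ to 3′ on the strand of the gene, with CpG dinucleotides in capitals. The coordinates are of GRCm38.p6 and cannot be set against the mm9 positions above.
Gng2, chr14:19976694-19976943, minus strand: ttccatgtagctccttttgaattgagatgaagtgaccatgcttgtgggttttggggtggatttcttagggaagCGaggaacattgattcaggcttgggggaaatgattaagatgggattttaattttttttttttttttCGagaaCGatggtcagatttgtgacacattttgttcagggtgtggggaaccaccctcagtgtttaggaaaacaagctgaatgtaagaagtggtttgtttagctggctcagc
Rgs10, chr7:128418173-128418422, minus strand: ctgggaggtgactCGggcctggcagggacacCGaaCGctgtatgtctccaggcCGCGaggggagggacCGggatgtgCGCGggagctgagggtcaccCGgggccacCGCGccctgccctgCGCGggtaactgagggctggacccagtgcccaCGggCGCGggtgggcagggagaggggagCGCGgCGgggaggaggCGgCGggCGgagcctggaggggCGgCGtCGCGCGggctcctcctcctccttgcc
Rgs16, chr1:153740103-153740352, plus strand: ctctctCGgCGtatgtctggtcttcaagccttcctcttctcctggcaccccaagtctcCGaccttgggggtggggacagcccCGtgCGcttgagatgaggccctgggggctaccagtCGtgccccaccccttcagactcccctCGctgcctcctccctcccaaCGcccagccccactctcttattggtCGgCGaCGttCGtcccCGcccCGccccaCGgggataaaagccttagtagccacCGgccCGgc
The promoters differed in base composition, with 3 CpG and 41.2% GC for Gng2, 27 CpG and 76.4% GC for Rgs10, and 17 CpG and 66.4% GC for Rgs16. Over all 32851 promoters the medians were 6 CpG and 52.4% GC. The core motif of GR binding sites, AGAACA searched on both strands (TGTTCT on the other), was in none of the 3 windows and in 16.1% of all promoter windows of this length. The palindrome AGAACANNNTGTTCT, which contains that motif on both strands, was in none of the 3 and in 0.00913% of all. The absence of these letters from a short window says nothing of GR binding elsewhere.

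Other genes of G protein signalling were taken from lists of effectors and partners, of which 56 genes were on the array and 38 were kept. By the value table, 3 of the 38 passed higher, against 5.53% of all kept probes, and 2 passed lower, against 6.04%. Both genes that passed lower were called, against 2.39% of all kept probes called lower. Nothing about the pathway is read from these small counts. Adcy6, an adenylyl cyclase inhibited by G alpha i, fell by 1.37 (SE 0.05, limma adjusted p = 0.0028), with scanner readings of 1.70 and 1.73 in EV-50, and 1.73 and 0.34 in shGR-19. Pik3r5, the regulatory subunit through which G beta-gamma activates phosphoinositide 3-kinase gamma, was called lower with -2.94 (adjusted p = 0.0025), with readings of -2.98 and -4.83 in EV-50, and -3.03 and -7.98 in shGR-19. It was well above background on 3 arrays and not on shGR-19 replicate 2, so that the size of its difference was not measured. In both genes the shift stood in replicate 2. The 3 that passed higher were the adenylyl cyclase genes Adcy7 (0.61) and Adcy9 (0.90) and the cAMP phosphodiesterase gene Pde4b (0.63). None of the 2 kept phospholipase C beta genes, the 8 receptor kinase and arrestin genes or the 8 chaperone and GoLoco genes passed.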

How the data were processed

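Total RNA of EV-50 and shGR-19 cells was Cy3-labelled for Agilent arrays of the whole mouse genome, 2 per line. The authors deposited background-subtracted spot intensity from Feature Extraction 10.5.1.1, not scaled between arrays, and log2 values from GeneSpring, which the deposited table holds centred on the median of each probe. Column medians of the table lay between -0.063 and 0.076. Here control spots and outlier spots (74 to 139 per array) were left out, log2 intensity was scaled to the array's 75th percentile, and spots of a probe were averaged. No spot was saturated. The lines were compared over all kept probes in either source with limma 3.58.1 (lmFit, eBayes) in R 4.3.3, with Benjamini-Hochberg adjustment. An exact permutation of 2 against 2 arrays cannot go below p = 0.333 and was not used. The number of arrays limits the precision.

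Members, lists and tests were chosen with earlier results of these data known. The brightest kept probe stood for a gene. Named were called members, the 10 largest rises and 10 largest falls in the value table, every kept G alpha, G beta and G gamma gene, called pathway genes and the 3 nearest genes on either side of called members. A fold to a line with no array well above background is a lower bound under the main background correction, set by the lowest signal well above background. Lists held adenylyl cyclases, phospholipase C beta, receptor kinases and arrestins, chaperones and GoLoco proteins, protein kinase A and phosphodiesterases, beta-gamma effectors, other gamma genes, and markers of epithelial, mesenchymal, immune, endothelial and adipocyte cells; of the last 2 lists, 2 of 4 and 1 of 3 genes were kept and 0 passed. Another list, counted in the totals, is not reported here. Alternatives were normexp with an offset of 50, quantile normalization, the percentile over detected probes, both filters, arrays left out, the replicate block, a trend with a robust prior (statmod 1.5.0), a plain equal-variance test and an adjusted p below 0.05. In data simulated from the value table, with independent noise on each array, 126 of 200 changed probes were recovered with 1 false call. From the scanner files 0 of 200 were recovered. The changed probes had a median fitted log2 difference of 1.99 in the first and 2.02 in the second. Same-numbered scanner arrays deviated together, which the simulation left out.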

Additional observations from a re-analysis of the deposited data

How the results depend on the processing

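By the value table, 5 member probes were called, 4 higher and 1 lower. With all probes kept the count was 1, Gng11, and with each array left out (range 0 to 0), with the replicate block or with the adjusted plain equal-variance test it was 0, in each direction and without the limit on the fold too, except that 1 passed higher with all probes kept. The replicate block cannot change a difference in this design. With it, the limma adjusted p of the 4 called genes and Gnaz was 0.0294 to 0.0309, and none of them passed. Same-numbered samples deviated together at 0.574 in the scanner files and 0.0553 in the value table, and with 2 pairs the numbers do not establish a pairing. An intensity trend with a robust prior gave 16 passed higher and 5 lower, and an adjusted p below 0.05 gave 17 and 6. The shares of all kept probes at these settings are not given here, so nothing about the members is read from these counts. The value table in place of the scanner files raised the scanner count from 0 to 5 called (4 higher, 1 lower), and to 8 passed higher and 2 lower. Scanner probes more than 2-fold lower numbered 0 over both pairs, 1 in replicate 1 and 2 in replicate 2.

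Single values changed sign as follows, and the cause was not tested. In the scanner files Gng8 was -0.48 from the value table, and Gng12 was -0.15 from the value table and -0.20 as the mean of its probes. The mean of the Rgs3 probes in the value table was -0.16. With each array left out, the scanner differences ranged from -1.51 to 0.40 for Rgs16, -0.022 to 0.12 for Gng12, -0.12 to 0.70 for Gnaq, -0.27 to 1.22 for Gnaz and -0.056 to 1.097 for Rgs10. With each array left out, the value table differences ranged from -1.17 to 0.21 for Gng8, -0.79 to 0.080 for Gnal, -0.76 to 0.052 for Rgs8, -0.35 to 0.14 for Gnat1, -0.73 to 0.59 for Gnb3, -0.082 to 0.22 for Gng3, -0.0066 to 0.15 for Rgs12, -0.0037 to 0.36 for Gng7 and -0.20 to 1.41 for Rgs20. The scanner reversals with an array left out arose without shGR-19 replicate 2, except for Gng12. For single genes, 87 scanner and 282 value table alternatives kept the direction and the side of the threshold. The sign was reversed in 9 and 13, and 29 value table alternatives, of 5 genes, lost the threshold. The filters and the replicate block cannot change a difference, so the direction was fixed in advance there. These counts therefore do not measure how stable the differences were. Signal over background limits Gng8, Rgs20 and Rgs9bp, which were well above background in shGR-19 alone.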
